A study of Mus musculus with 11 samples.

Results

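The cells compared here are those sorted from mouse islets as NNAT-positive beta cells and as non-beta cells. The comparison used 7 of the 11 RNA-seq libraries of the series: 4 labelled NNAT-positive beta cells, from mice 1 to 4, and 3 labelled non-beta cells, from mice 1 to 3. The other 4 libraries, labelled NNAT-negative beta cells, entered the same model but were not a side of the comparison. All mice were chow-fed C57BL6/J males carrying RIP-Cre, a STOP-tdTomato allele and an Nnat-EGFP transgene, and were 10 weeks old by the labels, although the text of the study gives another age. Cre under the rat insulin promoter switched on tdTomato in beta cells, eGFP reported *Nnat* promoter activity, and live single islet cells were separated by FACS. Non-beta cells are thus defined by lacking the beta cell reporter rather than by a marker of their own, and whether eGFP also entered their gate was not settled from the sources used here. RNA was poly(A)-selected. The question was which genes separate these beta cells from the rest of the islet preparation, and which cell types the genes higher in non-beta cells belong to.

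Islets of Langerhans contain several endocrine cell types, each known by its hormone. Beta cells secrete insulin, alpha cells glucagon (*Gcg*), delta cells somatostatin (*Sst*) and PP cells pancreatic polypeptide (*Ppy*). Islets are also densely supplied with capillaries of fenestrated endothelium, carry pericytes and fibroblasts and harbour resident macrophages, and isolated islets come with acinar and ductal cells of the exocrine pancreas attached. Mature beta cells are known for keeping a group of otherwise ubiquitous genes silent, the 'disallowed' genes.

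Levels are CPM (counts scaled to a common library total), adjusted between libraries by TMM, and values are listed in the order of the mice throughout (1 to 3 for non-beta cells, 1 to 4 for NNAT-positive cells). A positive log2 fold change means higher in non-beta cells. A gene counted as called when the quasi-likelihood test of edgeR, with the mouse as a block, gave an adjusted *p* below 0.01 and the change exceeded 2-fold. Mouse 4 has no non-beta library. With the block, its NNAT-positive library bears on the comparison only through the NNAT-negative library of the same mouse. Fitted folds thus rest mainly on mice 1 to 3, whereas the listed CPM include mouse 4. Total counts lay between 37438669 and 43238376 in the libraries labelled NNAT-positive and between 35993622 and 40834007 in those of non-beta cells, so that a floor of 3 counts was at most 0.0843 CPM in the 7 libraries. This floor covers counting error only.

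The gene behind the sort reporter did not follow the labels of the beta cell fractions. *Nnat* (chr2:157560078-157562522, GRCm38, plus strand) reached 50.5, 46.4, 46.05 and 101 CPM in libraries with the NNAT-positive label and 74.8, 80.8, 66.5 and 153 CPM in those labelled NNAT-negative, and was lower in the former in each of the 4 mice. Non-beta libraries had 12.9, 29.9 and 17.4 CPM of *Nnat*, below every library labelled NNAT-positive (log2 fold change −1.31, SE 0.20, edgeR adjusted *p*=0.000379). The label names are kept here, and every direction given for 'NNAT-positive' cells is that of the libraries so labelled. The insulin genes, whose rat promoter drives the other reporter, did follow the labels: *Ins1* was at 72013, 75482, 84061 and 42340 CPM in NNAT-positive and 2393, 2640 and 6583 CPM in non-beta libraries. Because both genes underlie the sort, these values check it and are not findings. *Ins1* in non-beta cells was 3.32, 3.50 and 7.83% of its level in the NNAT-positive library of the same mouse.

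Some libraries stood apart within their group. In mouse 4, the library labelled NNAT-positive had the lowest insulin gene and the highest early-response gene levels of its group, and in mouse 2 it had the highest acinar enzyme levels. Among non-beta cells, mouse 1 had the highest immune and stromal levels and the lowest acinar levels. The calls of the lists that these libraries touch are given with and without that mouse. Since mouse 4 has no non-beta library, leaving it out of a fit with the block can move the folds little. Across the tested genes, the log2 CPM of pairs of 1 library of each fraction correlated by 0.738 on average (12 pairs, Pearson's *r*), against 0.961 within the NNAT-positive fraction (6 pairs) and 0.954 within non-beta cells (3 pairs). These pairs share libraries and the genes are not independent.

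Of the 17424 genes tested, 2697 (15.5%) were higher in non-beta cells and 1068 (6.13%) were higher in the libraries labelled NNAT-positive. The median log2 fold change over all tested genes was 0.06. Genes higher in non-beta cells differed by more: their median log2 fold change was 5.23 (5.07 with genes without counts in NNAT-positive libraries at their bound). Among genes with counts in both groups, 960 of those higher in non-beta cells differed by more than 64-fold, against 6 of those higher in NNAT-positive libraries, whose median was −1.53. The sort gene *Ins1* itself differed by 21.9-fold. Altogether 253 of the genes higher in non-beta cells had no count in any of the 4 NNAT-positive libraries, whereas 14 of those higher in NNAT-positive libraries had none in the 3 non-beta libraries. The levels of the groups did not overlap for 2637 of the 2697 genes and 1052 of the 1068, beside 50.7% of all genes tested. Each called gene had the same direction in mice 1, 2 and 3. The fitted folds rest mainly on these mice, so this adds little to the calls. In these bulk samples, fewer cells of a type and less RNA per cell cannot be told apart. The lists of genes with known roles used below held 146 of the 2697 genes and 32 of the 1068. Most calls were thus not assigned to a cell type by a list.

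**Figure D1:**
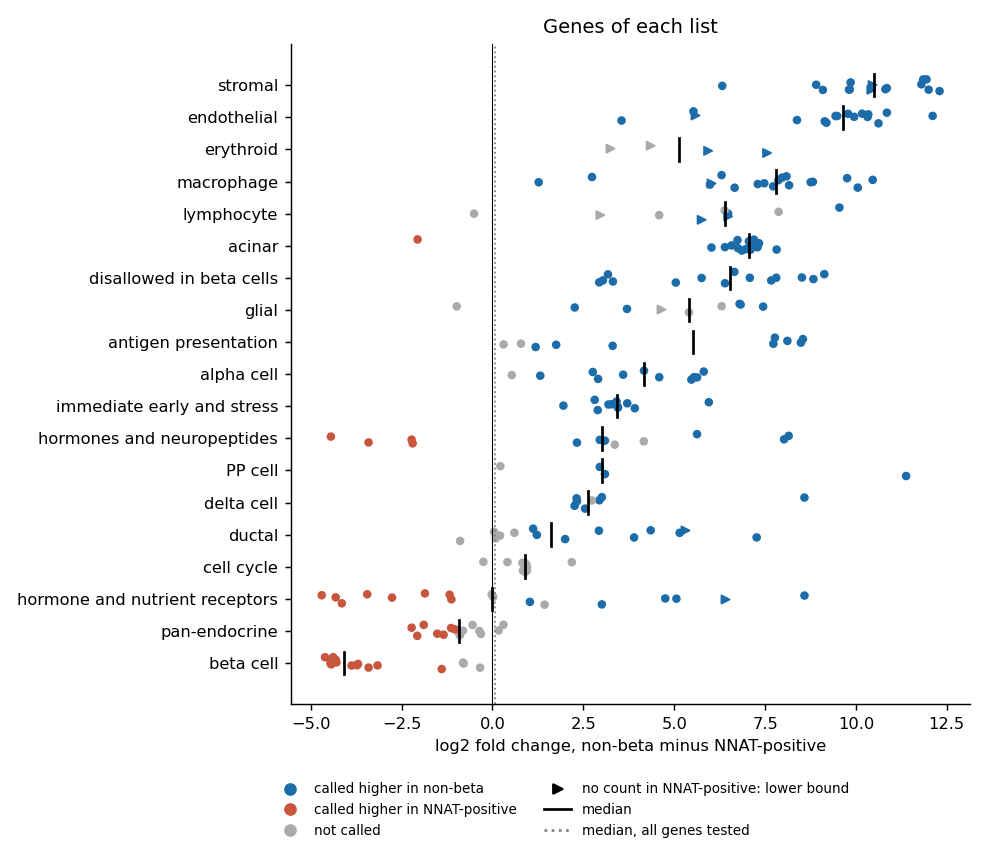
Log2 fold change (non-beta minus NNAT-positive, horizontal axis) of each tested gene in 19 lists of genes with known roles, with lists ordered by their fitted median. Triangles are lower bounds for genes with no count in the libraries labelled NNAT-positive, black bars are list medians with those genes at their bound, and the dotted line is the median of all genes tested (0.06). Stromal and endothelial lists lie farthest to the right and the beta cell list farthest to the left.

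Islet hormones came first among the genes called higher in non-beta cells. Over all genes tested, ranked by level per kilobase of exon in non-beta cells, *Gcg* was number 1 and *Sst* number 2. Beta cell hormone genes also ranked high there, *Ins2* at 4, *Ins1* at 8 and *Iapp* at 17, with *Pyy* at 9 and *Ppy* at 19. Per kilobase of exon, *Gcg* and *Sst* were the genes of highest level among those called higher in non-beta cells, at 95836 and 14501 CPM per kb, and *Pyy* and *Ppy* ranked among the first 20 at 3069 and 2119 CPM per kb. *Gcg* (ENSMUSG00000000394.15, chr2:62474530-62483650, minus strand) alone took 13.5, 16.7 and 14.9% of all counts of the non-beta libraries of mice 1 to 3, and between 0.212 and 0.333% of those labelled NNAT-positive. Coordinates are those of GRCm38 in Gencode release M21.

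The 250 bases before the RefSeq transcription start of *Gcg*, *Ppy* and *Ins1* (build GRCm38.p6) are shown as those of the hormone genes of alpha, PP and beta cells, with 30 bases of the *Sst* promoter that hold its cAMP response element. These 30 bases lie before the RefSeq start of *Sst* but inside its Gencode gene, because a longer annotated transcript covers them. Capitals mark matches, on either strand, to 3 motifs searched in each 250-base window. The TATA box was searched as TATAAA. The cAMP response element was searched as TGACGTCA, and the E box of insulin genes as GCCATCTG.
Gcg, chr2:62483654-62483903, minus strand: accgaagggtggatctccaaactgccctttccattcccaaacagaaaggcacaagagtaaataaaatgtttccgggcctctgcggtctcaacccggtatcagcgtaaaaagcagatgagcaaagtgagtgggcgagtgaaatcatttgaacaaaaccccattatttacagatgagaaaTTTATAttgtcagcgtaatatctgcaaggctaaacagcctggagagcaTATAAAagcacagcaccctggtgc
Sst, chr16:23890874-23890903, minus strand: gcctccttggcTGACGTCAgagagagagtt
Ppy, chr11:102101320-102101569, minus strand: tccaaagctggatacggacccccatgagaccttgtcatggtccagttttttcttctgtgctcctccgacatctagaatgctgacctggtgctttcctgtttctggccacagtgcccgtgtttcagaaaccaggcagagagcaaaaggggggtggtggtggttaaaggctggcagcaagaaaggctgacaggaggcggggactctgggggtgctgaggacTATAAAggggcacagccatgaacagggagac
Ins1, chr19:52264047-52264296, plus strand: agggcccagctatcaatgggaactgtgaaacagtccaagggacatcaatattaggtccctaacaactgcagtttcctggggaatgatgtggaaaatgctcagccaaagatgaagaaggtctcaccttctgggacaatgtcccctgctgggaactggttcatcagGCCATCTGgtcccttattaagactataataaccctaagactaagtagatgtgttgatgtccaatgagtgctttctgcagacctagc
In *Gcg* the TATA box began 24 bases before the start, with a reverse-strand match at 72, and in *Ppy* it began 31 bases before. The response element of *Sst* began 48 bases before its RefSeq start and the E box of *Ins1* 86 bases before. Among 32851 RefSeq promoter windows of the same length, 12.4% held TATAAA, 1.55% TGACGTCA and 1.11% GCCATCTG. These matches describe the sequence and do not show binding.

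*Gcg* was at 119071, 166640 and 143827 CPM in non-beta cells and 3502, 2200, 3075 and 2517 CPM in libraries labelled NNAT-positive, which did not overlap (log2 fold change 5.63, SE 0.22, edgeR adjusted *p*=6.86e-08). *Sst* (chr16:23889573-23890958, minus strand) was at 6425, 12764 and 12178 CPM in non-beta cells against 1842, 1981, 2403 and 1322 CPM, a smaller difference (log2 fold change 2.33, SE 0.18, edgeR adjusted *p*=3.03e-06). The mouse 1 non-beta library had the least *Sst*, yet it still lay above each NNAT-positive library. *Ppy* (chr11:102099930-102101319, minus strand) had 559, 1177 and 1442 and 108, 125, 178 and 116 CPM, in the same order (log2 fold change 2.95, SE 0.18, edgeR adjusted *p*=8.93e-07). *Pyy*, which encodes peptide YY, a relative of pancreatic polypeptide found in several islet cell types, had 1298, 2262 and 2248 and 211, 214, 243 and 183 CPM (log2 fold change 3.10, SE 0.16, edgeR adjusted *p*=2.46e-07). Ghrelin (*Ghrl*), the hormone of rare epsilon cells, reached 0.822, 1.96 and 10.9 CPM in non-beta cells, most of it in mouse 3, and was at 0 in the NNAT-positive libraries of mice 1 to 3. Without mouse 3 its adjusted *p* in edgeR's test was 0.0755.

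**Figure D2:**
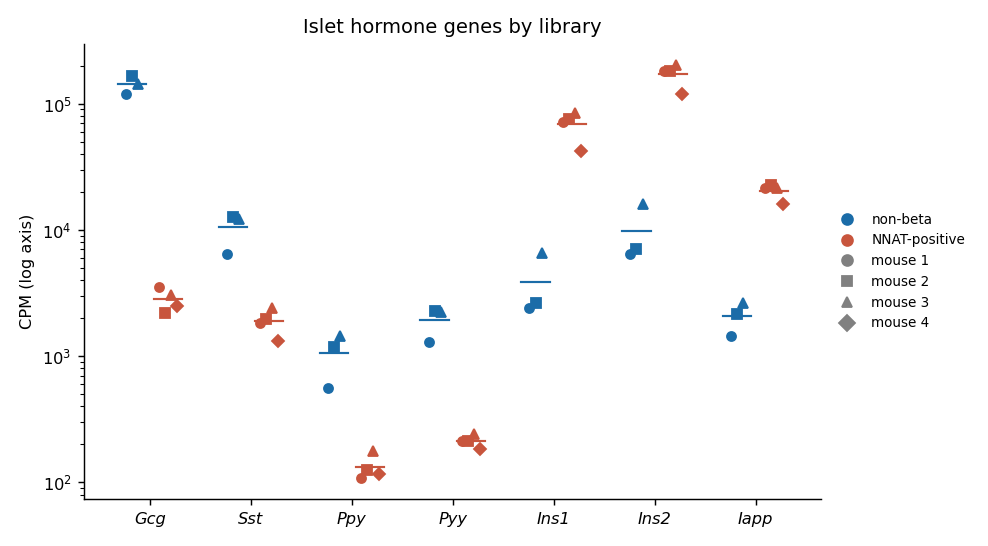
CPM (log axis) of islet hormone genes in the 3 non-beta libraries (blue) and the 4 libraries labelled NNAT-positive (red), with 1 symbol per mouse and bars for group means. *Gcg*, *Sst*, *Ppy* and *Pyy* are higher in each non-beta library than in any NNAT-positive library, and *Ins1*, *Ins2* and *Iapp* lower.

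Alpha cell genes were higher in non-beta cells for 10 of the 11 listed, with a median log2 fold change of 4.17, beside 15.5% and 0.06 for all genes tested. Beside *Gcg* itself, the transcription factors of alpha cells differed more than the other members. *Irx1*, a homeobox gene of alpha cells, had 55.1, 68.2 and 58.2 CPM in non-beta cells and 1.63, 0.816, 1.68 and 1.65 CPM in NNAT-positive libraries, far apart in each mouse (log2 fold change 5.47, SE 0.41, edgeR adjusted *p*=2.86e-06). Its relative *Irx2* had 74.3, 93.4 and 80.00 CPM against 3.12, 3.07, 4.53 and 5.64 CPM (log2 fold change 4.59, SE 0.22, edgeR adjusted *p*=1.89e-07). *Pou3f4*, another alpha cell factor, was low, at 7.96, 8.69 and 8.61 CPM in non-beta cells and 0.618, 0, 0.0262 and 0.274 CPM in NNAT-positive libraries. Its edgeR adjusted *p* was 0.00367, and 0.0166 without mouse 2 and 0.0147 without mouse 3.

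Secreted and transporter products of alpha cells kept more of their level in the NNAT-positive libraries. Transthyretin (*Ttr*), a thyroxine carrier abundant in alpha cells, had 3657, 4214 and 5294 CPM in non-beta cells and 547, 591, 599 and 559.5 CPM in NNAT-positive libraries (log2 fold change 2.91, SE 0.11, edgeR adjusted *p*=5.78e-08). *Gc*, the vitamin D binding protein, differed least among the called members, at 265, 323 and 331 and 134, 106, 132 and 50.9 CPM (log2 fold change 1.32, SE 0.11, edgeR adjusted *p*=4.98e-06). The glutamine transporter *Slc38a5* and the chromatin remodeller *Smarca1* differed by 3.60 and 2.76 (log2). The arginine transporter *Slc7a2* was not called: it had 549, 717 and 656 CPM in non-beta cells and 438, 494, 388 and 488 CPM in NNAT-positive libraries (log2 fold change 0.53, SE 0.10, edgeR adjusted *p*=0.00139), under the 2-fold limit although the groups did not overlap.

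Of the delta cell genes, 7 of 8 were called higher in non-beta cells (median log2 fold change 2.64). *Hhex*, the homeobox factor that maintains delta cells, had 38.1, 50.00 and 46.2 CPM in non-beta cells and 8.71, 9.43, 6.31 and 8.77 CPM in libraries labelled NNAT-positive (log2 fold change 2.55, SE 0.44, edgeR adjusted *p*=0.000793). *Rbp4*, the retinol carrier made by delta cells, had 423, 666 and 600.0 against 68.4, 73.3, 77.8 and 68.5 CPM (log2 fold change 2.94, SE 0.12, edgeR adjusted *p*=7.59e-08). The ghrelin receptor *Ghsr* was at 11.9, 27.6 and 17.5 CPM in non-beta cells and between 2.44 and 3.43 CPM in the other group (log2 fold change 3.01, SE 0.56, edgeR adjusted *p*=0.00129); without mouse 3 its adjusted *p* was 0.0115. *Ptprz1* and *Etv1* differed by 2.31 and 2.26, close to *Sst* itself. The urocortin 3 receptor *Crhr2*, through which beta cells signal to delta cells, was low in both groups, at 3.31, 3.31 and 2.10 and 0.225, 0.744, 0.654 and 1.14 CPM, and was not called (log2 fold change 2.73, SE 1.13, edgeR adjusted *p*=0.0709).

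The leptin receptor *Lepr* did not behave like the other delta cell genes. It had 44.97, 23.6 and 20.6 CPM in non-beta cells, highest in mouse 1 as were the 15 stromal genes, and 0.281, 0, 0 and 0 CPM in NNAT-positive libraries. With DESeq2 the adjusted *p* of *Lepr* was 0.0124. Among PP cell genes besides *Ppy* and *Pyy*, *Meis2* was at a like level in both groups, with 97.1, 125 and 107 CPM in non-beta and 99.7, 82.5, 100.2 and 93.2 CPM in NNAT-positive libraries (log2 fold change 0.22, SE 0.12, edgeR adjusted *p*=0.181). *Abcc9*, a potassium channel subunit that pericytes also carry, was at 62.5, 41.7 and 27.99 CPM and, in NNAT-positive libraries, at 0, 0.0960, 0 and 0 CPM. The water channel *Aqp3* had too few counts to be tested.

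The hormone genes left unequal shares of their level in the beta cell libraries. Within the same mouse, *Gcg* in the library labelled NNAT-positive was 2.94, 1.32 and 2.14% of its non-beta level in mice 1, 2 and 3, whereas *Sst* was 28.7, 15.5 and 19.7%, *Ppy* 19.3, 10.6 and 12.3% and *Pyy* 16.3, 9.45 and 10.8%. Among transcription factors of the lists, *Irx2* was between 3.29 and 5.66% in the 3 mice, *Hhex* at 22.9, 18.9 and 13.7% and *Meis2*, of the PP cell list, at 103, 66.2 and 93.5%. The summed lists of these endocrine cell types, shown in the plot of levels left, mostly repeat the hormone genes. The macrophage sum in NNAT-positive libraries mostly repeats the complement gene *C1qa*, at a mean of 55.8 of 63.6 CPM. The median share left of macrophage members with at least 10 CPM in non-beta cells was 0.447%. Over the members with at least 10 CPM in non-beta cells, the median share left was 7.12, 6.72 and 7.5% for 10 alpha cell genes, 22.9, 12.8 and 15.3% for 7 delta cell genes and 17.8, 10.0 and 11.6% for 4 PP cell genes. The PP cell median lay midway between *Ppy* and *Pyy* in each mouse, since *Meis2* was above and *Abcc9* below them. It thus repeats these hormone genes. The source of the reads left in NNAT-positive libraries was not tested. In the libraries labelled NNAT-negative, set beside the same non-beta libraries, mean levels were lower still, at 1371 CPM for *Gcg*, 743 for *Sst*, 46.5 for *Ppy* and 85.5 for *Pyy*.

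**Figure D3:**
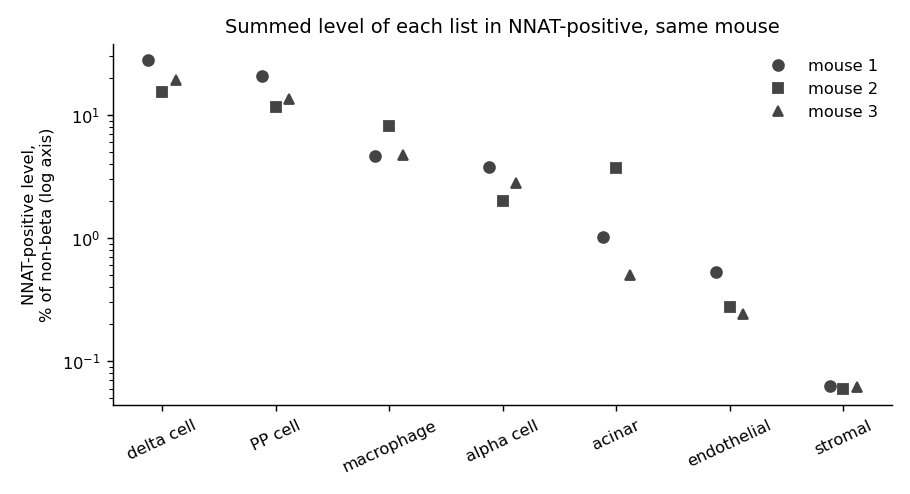
Summed CPM of 7 lists in the library labelled NNAT-positive as a percentage of the non-beta library of the same mouse (vertical log axis, 1 symbol per mouse). Delta and PP cell genes keep between 11.7 and 27.8%, alpha cell genes between 2.00 and 3.77% and stromal genes between 0.0596 and 0.0626%. Macrophage genes keep between 4.61 and 8.15%, most of it from *C1qa*.

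Endothelial genes were higher in non-beta cells for 16 of 16 listed, with a median log2 fold change of 9.87, or 9.63 with genes without counts in NNAT-positive libraries at their bound. Their summed level was close between mice, at 3097, 3146 and 3448 CPM in non-beta cells (highest over lowest 1.11), and 16.4, 8.73, 8.43 and 7.97 CPM in libraries labelled NNAT-positive. *Pecam1* (CD31, chr11:106654217-106750628, minus strand), an adhesion molecule of endothelial junctions, had 251, 264 and 255 CPM in non-beta and 0.871, 0.288, 0 and 0.297 CPM in NNAT-positive libraries (log2 fold change 9.48, SE 0.47, edgeR adjusted *p*=2.18e-07). The VEGF receptors *Kdr* and *Flt1* had 566, 581 and 595 and 434, 494 and 526 CPM in non-beta cells, and differed by 10.34 and 9.44 (log2). *Plvap*, which forms the diaphragms of fenestrae, had 580.0, 617 and 736 CPM in non-beta cells, against 2.47, 0, 0.157 and 0.0914 CPM. In each of these 4 genes the mouse 1 library carried the most among NNAT-positive libraries.

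Other endothelial members fell near the floor in the beta cell libraries. *Cdh5*, the cadherin of endothelial junctions, had 135, 156 and 156 CPM in non-beta cells and was at 0 in 3 of the 4 NNAT-positive libraries. *Robo4*, a guidance receptor of endothelium, had 2 counts over the 4 NNAT-positive libraries together, and the ratio of its mean levels was 4417 (95% exact Poisson interval 1223 to 36471). *Sox17*, a factor of arterial endothelium, had 3.52, 4.96 and 3.52 CPM in non-beta cells and no count in NNAT-positive libraries, so it was at least 47.5-fold higher; its call was lost without mouse 2 (adjusted *p*=0.0119), without mouse 3 (0.0147) and with DESeq2 (0.0264). *Vwf*, which varies along the vascular tree, was lower in mouse 2 than in the other mice (126, 51.6 and 120.1 CPM). *Esam* kept the most in the beta cell libraries, at 4.97, 8.04, 6.65 and 5.78 CPM beside 77.5, 75.7 and 87.8 CPM in non-beta cells (log2 fold change 3.55, SE 0.24, edgeR adjusted *p*=1.52e-06).

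Stromal genes, of fibroblasts, pericytes and smooth muscle, were called higher in non-beta cells for 15 of 15 (median log2 fold change 10.80, or 10.50 with genes without counts in NNAT-positive libraries at their bound), the highest median of the 19 lists. Their sum was 9608, 4225 and 5227 CPM in non-beta cells against 6.01, 2.52, 3.22 and 1.97 CPM. *Col3a1* (chr1:45311538-45349706, plus strand), a fibrillar collagen, had 2595, 1214 and 1672 CPM in non-beta cells and 1.38, 0.240, 0.288 and 0.160 CPM in NNAT-positive libraries (log2 fold change 11.85, SE 0.60, edgeR adjusted *p*=2.34e-07). *Col1a1* and *Col1a2* had 1434, 542 and 825 and 1960, 704 and 989 CPM in non-beta cells. *Dcn*, the proteoglycan decorin, had 1569, 623 and 592 CPM in non-beta cells and was at 0 in the NNAT-positive libraries of mice 3 and 4. *Pdgfra*, a receptor of fibroblasts, had 178, 73.5 and 96.3 CPM and no count in any NNAT-positive library, and was thus at least 1373-fold higher. *Lum*, another matrix proteoglycan, was at least 1405-fold higher on the same basis.

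Genes of mural cells were higher as well. *Rgs5*, a pericyte regulator of G protein signalling, had 604, 497 and 482 CPM in non-beta cells and 0.253, 0, 0.864 and 0.662 CPM in NNAT-positive libraries (log2 fold change 10.85, SE 0.79, edgeR adjusted *p*=2.36e-06). *Pdgfrb* and *Notch3*, receptors of pericytes, had 148, 101 and 106 and 190.4, 121 and 122 CPM in non-beta cells. *Acta2*, smooth muscle actin, had 279.6, 88.1 and 73.5 CPM and 3 counts over the NNAT-positive libraries, a ratio of 7808 (95% exact Poisson interval 2672 to 37860). All 15 stromal members were highest in the non-beta library of mouse 1, and each stayed called without mouse 1 (median log2 fold change 11.60).

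Macrophage genes were called higher in non-beta cells for 18 of 18, with a median log2 fold change of 7.92, or 7.79 with genes without counts in NNAT-positive libraries at their bound, and 17 of them were highest in mouse 1, without which 17 were called. *Csf1r*, the receptor for the macrophage growth factor CSF1, had 219, 98.7 and 134 CPM in non-beta cells and 1.91, 0.672, 0.628 and 0.365 CPM in NNAT-positive libraries (log2 fold change 7.30, SE 0.49, edgeR adjusted *p*=1.45e-06). *Adgre1* (F4/80) had 60.9, 29.1 and 43.9 CPM and differed by 6.30, and lysozyme (*Lyz2*) had 408, 161 and 135 CPM and differed by 7.97 (log2). *Cx3cr1*, the fractalkine receptor, had 38.3, 24.4 and 36.4 CPM and 3 counts over the NNAT-positive libraries, a ratio of 1752 (95% exact Poisson interval 599 to 8495). The pan-leukocyte gene *Ptprc* (CD45) had 128, 42.8 and 48.5 CPM in non-beta cells. *Itgam* was at least 63.99-fold higher, with no count in NNAT-positive libraries. Its call was lost without mouse 1 (adjusted *p*=0.0192) and with DESeq2 (0.0226), that of *Fcgr1* without mouse 3 (0.0383), and that of *Tyrobp* with DESeq2 (0.0165).

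The 3 chains of complement C1q did not move together. *C1qb* had 133, 67.9 and 99.5 CPM in non-beta cells and 0.393, 0.432, 0.366 and 0.206 CPM in NNAT-positive libraries (log2 fold change 8.16, SE 0.56, edgeR adjusted *p*=1.56e-06), and *C1qc* had 105, 46.1 and 66.99 and 0.731, 0.0960, 0.262 and 0.274 CPM. *C1qa* (chr4:136895917-136898803, minus strand), a neighbour of both, had 179.9, 101 and 139 CPM in non-beta cells but 71.7, 61.2, 44.2 and 45.9 CPM in NNAT-positive libraries (log2 fold change 1.27, SE 0.18, edgeR adjusted *p*=0.000217). The 4 NNAT-positive libraries were thus at like levels of *C1qa* to each other while *C1qb* and *C1qc* stayed below 1 CPM, and the libraries labelled NNAT-negative had a mean of 60.2 CPM of *C1qa*. No other gene of the annotation shares exonic bases with it. The source of these reads was not tested. *Fcer1g*, an Fc receptor chain, was the other member above 1 CPM in each NNAT-positive library, at 3.37, 2.35, 1.54 and 2.31 CPM beside 20.6, 9.88 and 16.5 CPM in non-beta cells.

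Antigen presentation genes split by class. MHC class II genes, which professional antigen-presenting cells express, were high in non-beta cells and nearly absent from the other group: *H2-Aa* had 743, 291 and 421 CPM against 4.38, 0.360, 1.68 and 0.662 CPM (log2 fold change 8.11, SE 0.49, edgeR adjusted *p*=7.62e-07). The invariant chain *Cd74* had 1558, 716 and 939 CPM against 11.3, 2.54, 3.46 and 1.07 CPM, and *Ciita*, the class II transactivator, differed by 8.48 (log2). Class I genes, which nucleated cells share, differed less. *B2m*, the class I light chain, had 510.0, 249.8 and 297 CPM in non-beta cells and 39.5, 34.7, 28.3 and 15.7 CPM in NNAT-positive libraries (log2 fold change 3.31, SE 0.15, edgeR adjusted *p*=1.57e-07). *H2-D1* differed by 1.19 (and by 1.00, just under 2-fold, without mouse 1), and *H2-K1* and the loading factor *Tapbp* were not called, at 0.79 and 0.31. In all, 8 of 10 listed genes were called (median log2 fold change 5.52). *H2-Aa*, *H2-Ab1*, *H2-K1* and *H2-D1* have close relatives in the genome, among which reads may have been divided.

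Lymphocyte genes had few counts. Of 12 listed, 9 were tested and 4 were called higher in non-beta cells, with a median log2 fold change of 7.63, or 6.39 with genes without counts in NNAT-positive libraries at their bound. B cell genes made up 3 of these calls and the T helper cell gene *Cd4* the other. *Cd79b*, a chain of the B cell receptor, had 16.5, 3.39 and 2.07 CPM in non-beta cells and 2 counts over the NNAT-positive libraries, a ratio of 584 (95% exact Poisson interval 162 to 4822). *Ms4a1* (CD20), a B cell surface protein, had 12.1, 9.30 and 1.21 CPM and no count in NNAT-positive libraries, at least 89.4-fold higher. *Cd4* had 6.51, 3.52 and 2.04 CPM in non-beta cells, and its adjusted *p* rose from 0.00614 to between 0.0195 and 0.0315 when mouse 1, 2 or 3 was left out. Of the T cell receptor complex, *Cd3e* was at 2.21, 1.22 and 0.968 CPM and not called (adjusted *p*=0.0186). Without mouse 1 the calls fell to 2.

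The other B cell receptor chain, *Cd79a* (chr7:24897381-24902197, plus strand), did not follow *Cd79b*. It had 14.6, 3.52 and 1.99 CPM in non-beta cells and 7.16, 7.65, 10.1 and 10.4 CPM in libraries labelled NNAT-positive, which overlapped (log2 fold change −0.51, SE 0.64, edgeR adjusted *p*=0.562). Without mouse 1 it was called lower in non-beta cells (log2 fold change −1.68, edgeR adjusted *p*=0.00906). Its mean in the libraries labelled NNAT-negative was 2.98 CPM.

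Immunoglobulin genes, the products of plasma cells, had among the largest differences and the least agreement between mice. *Igha* (chr12:113254830-113260236, minus strand), the heavy chain of IgA, had 1022, 21.6 and 7.91 CPM in non-beta cells and no count in NNAT-positive libraries. *Ighg2b*, an IgG heavy chain, had 158, 27.9 and 28.8 CPM, and the kappa light chain constant region *Igkc* had 2142, 395 and 47.5 CPM, both highest in mouse 1. The variable segment *Igkv5-39* was instead highest in mouse 2, at 12.3, 245 and 25.4 CPM. *Pou2af1*, a B cell coactivator, had 59.5, 13.5 and 2.29 CPM. Variable segments and heavy chain subclasses have close relatives, among which reads may have been divided. *Igha* lost its call with the 7 libraries alone and no block (adjusted *p*=0.0106).

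**Figure D4:**
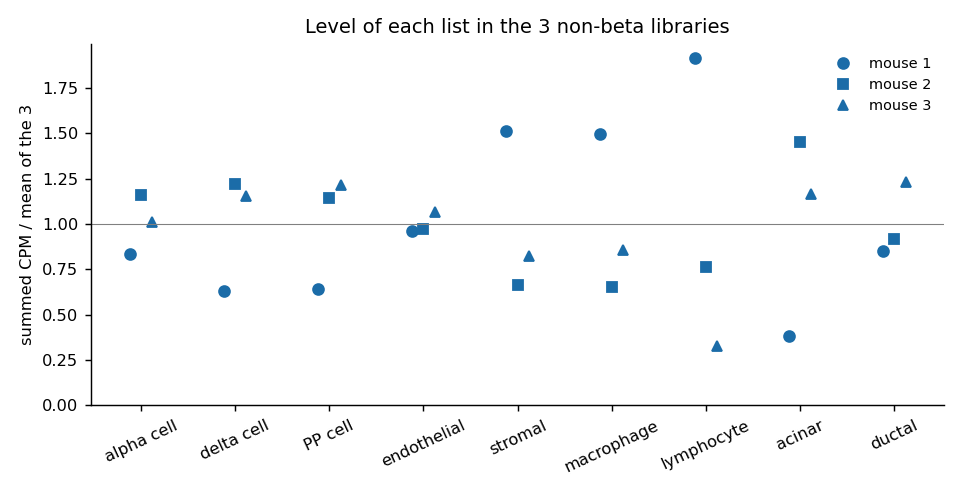
Summed CPM of 9 lists in each of the 3 non-beta libraries, divided by the mean of the 3 (vertical axis from 0, 1 symbol per mouse). Endothelial genes lie within a narrow range, stromal, macrophage and lymphocyte genes are highest in mouse 1, and acinar, delta and PP cell genes are lowest there.

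Acinar genes, which encode digestive enzymes of the exocrine pancreas, were called higher in non-beta cells for 18 of the 19 tested (median log2 fold change 7.07). They made up 12 of the 20 genes of highest level per kilobase among those higher in non-beta cells, and the enzyme genes *Ctrl* and *2210010C04Rik* (a trypsinogen-like gene), outside the list, were 2 more. Pancreatic lipase (*Pnlip*, chr19:58652498-58681788, plus strand) had 3765, 14731 and 11646 CPM in non-beta cells and 19.9, 510.3, 36.02 and 2.19 CPM in libraries labelled NNAT-positive (log2 fold change 7.33, SE 1.32, edgeR adjusted *p*=0.00113). Chymotrypsinogen (*Ctrb1*) had 3606, 11241 and 9855 and 20.7, 425, 40.1 and 2.26 CPM, and elastase (*Cela1*) 1749, 7875 and 7011 and 11.2, 313, 25.9 and 1.85 CPM. In each enzyme the mouse 2 library was the highest of the NNAT-positive libraries, and the mouse 1 library the lowest of the non-beta libraries. The list's sum in NNAT-positive libraries was 224, 3036, 331 and 104 CPM and in non-beta libraries 21663, 82333 and 66055 CPM.

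The acinar calls depended on the mice included. They numbered 8 without mouse 1, 17 without mouse 2, 5 without mouse 3 and 18 without mouse 4, and 8 with the 7 libraries alone and no block. The median log2 fold change stayed between 6.06 and 8.22 in these fits. Trypsinogens (*Prss2*, *Try4*, *Try5*) are close paralogs, and reads could be split between them. *Ptf1a*, the acinar transcription factor, was low, at 0.367, 3.13 and 3.95 CPM, with 1 count over the NNAT-positive libraries for a ratio of 395 (95% exact Poisson interval 70.95 to 15615), and lost its call with DESeq2 (adjusted *p*=0.0724) and without mouse 1, 2 or 3. *Bhlha15* (Mist1, chr5:144190286-144194441, plus strand), a factor of secretory cells, went the other way: it had 12.9, 23.4 and 20.5 CPM in non-beta cells and 76.5, 61.1, 99.5 and 85.8 CPM in NNAT-positive libraries (log2 fold change −2.06, SE 0.21, edgeR adjusted *p*=2.07e-05).

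Ductal genes were mixed. Of 14 tested, 9 were called higher in non-beta cells, with a median log2 fold change of 1.61. *Krt19*, the keratin used to identify ducts, had 32.6, 23.00 and 30.4 CPM in non-beta cells and 1.94, 0.912, 4.24 and 0.640 CPM in libraries labelled NNAT-positive (log2 fold change 3.90, SE 0.39, edgeR adjusted *p*=2.28e-05). *Sox9*, the duct transcription factor, had 9.17, 9.20 and 14.5 against 0.534, 0.336, 0.628 and 0.388 CPM (log2 fold change 4.35, SE 0.72, edgeR adjusted *p*=0.000644), with an adjusted *p* of 0.0172 without mouse 3. The secreted phosphoprotein *Spp1* (osteopontin) had 175, 141 and 279 against 29.7, 17.97, 26.5 and 3.75 CPM, and the mucin *Muc1* differed by 5.15 (log2). The chloride channel *Cftr* had 2.90, 2.04 and 5.89 CPM in non-beta cells and lost its call without mouse 3 (adjusted *p*=0.0375). Epithelial genes that islet cells share behaved otherwise: *Krt7* had 97.4, 109 and 133 CPM in non-beta cells and 195, 195, 229 and 224 CPM in NNAT-positive libraries (log2 fold change −0.89, SE 0.11, edgeR adjusted *p*=0.000111), and *Epcam* had 141, 180.3 and 214 and 147, 152, 165 and 121 CPM (log2 fold change 0.21, SE 0.10, edgeR adjusted *p*=0.112). Calls numbered 6 without mouse 2 and 5 without mouse 3.

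Glial and erythroid genes were at low levels. Of the 9 glial genes tested, 5 were called higher in non-beta cells, among them *Gap43*, a growth-associated protein of nerve and Schwann cells, at 17.2, 24.6 and 20.4 CPM against 4.13, 5.01, 4.34 and 3.45 CPM (log2 fold change 2.26, SE 0.40, edgeR adjusted *p*=0.00104), which had an adjusted *p* of 0.0153 without mouse 3. *Cryab*, a small heat shock protein that other cells express too, had 20.5, 13.3 and 12.1 CPM in non-beta cells. *Sox10*, the defining factor of Schwann cells, was at 3.96, 2.49 and 3.20 CPM and not called (adjusted *p*=0.0141). Glial calls higher in non-beta cells numbered 3, 4 and 2 without mouse 1, 2 and 3. The lowest log2 fold change of the glial list was −0.98, and without mouse 2 the list had 1 call higher in NNAT-positive libraries. The haemoglobin gene *Hbb-bs* had 15.6, 11.2 and 20.8 CPM in non-beta cells and no count in the NNAT-positive libraries, at least 188-fold higher. It and *Hba-a1* were the 2 erythroid genes called, of 4 tested, and *Hba-a1* lost its call without mouse 3 (0.0104) and with DESeq2 (0.0208). Haemoglobin genes are close copies, so reads could be split among them.

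Matrix and immunoglobulin genes were among the 20 genes of largest fitted fold with at least 10 CPM in non-beta cells. Of these 20, 19 had no count in any library labelled NNAT-positive, so that their order depends on the prior count of the fit and only a lower bound can be given, of 133-fold or more. *Ogn* (osteoglycin, chr13:49608046-49624501, plus strand), a matrix proteoglycan, had 158, 58.6 and 70.8 CPM in non-beta cells, at least 1138-fold higher. *Dpt* (dermatopontin), a matrix protein of fibroblasts, had 272, 81.6 and 96.4 CPM, and *Svep1*, an extracellular adhesion protein, 262, 137 and 171 CPM. *Col6a1*, a chain of collagen VI, had 490.4, 276 and 330.5 CPM, and its 5 counts in the beta cell libraries all fell in mouse 4. The interferon-inducible *Ifi204* had the smallest bound of the 19, at 12.9, 11.8 and 8.96 CPM. The other ranked genes were *Col5a2*, *Lum*, *Pdgfra*, *Cygb*, *Gdf10*, *Vgll3*, *Scara5*, *Nkx2-3*, *Igfbp6*, *Osmr* and *Htra3*, beside the B cell and immunoglobulin genes *Igha*, *Ighg2b*, *Igkv5-39* and *Pou2af1*.

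Beta cell genes were higher in the libraries labelled NNAT-positive for 15 of the 18 listed (median log2 fold change −4.08), beside 6.13% of all genes, and for 15 without mouse 4. *Ins1* and *Ins2* are sort genes and among the 15. *Mafa*, which drives insulin transcription in mature beta cells, had 896, 864, 958 and 638 CPM in NNAT-positive libraries and 30.2, 25.4 and 61.99 CPM in non-beta cells (log2 fold change −4.61, SE 0.26, edgeR adjusted *p*=4.36e-07). *Slc2a2* (GLUT2), the glucose transporter, had 1791, 1691, 1916 and 1405 against 61.8, 66.6 and 151 CPM, and *Ucn3*, a maturity peptide, 711, 702, 676 and 456 against 23.6, 29.3 and 44.5 CPM. Amylin (*Iapp*), co-secreted with insulin, had 21297, 22558, 21381 and 16011 against 1450, 2138 and 2649 CPM (log2 fold change −3.41, SE 0.16, edgeR adjusted *p*=1.65e-07). The factors *Nkx6-1* and *Pdx1*, the latter also present in delta cells, differed by −3.70 and −3.16 (log2). In 14 of the 18 genes, mouse 3 had the highest non-beta level: *Mafa* in non-beta cells was 3.37, 2.94 and 6.47% of its NNAT-positive level in mice 1, 2 and 3.

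The subunits of the ATP-sensitive potassium channel, which other islet endocrine cells also have, were not called. *Abcc8* had 1161, 1178, 1157 and 1363 and 569.8, 823 and 669 CPM (log2 fold change −0.79, SE 0.13, edgeR adjusted *p*=0.000744), and *Kcnj11* had 184, 189, 175 and 136 and 119, 172 and 148 CPM, which overlapped (log2 fold change −0.34, SE 0.11, edgeR adjusted *p*=0.0232). The zinc transporter *Slc30a8* was called at the smallest difference of the list, 1202, 1402, 1440 and 1300 against 414, 568 and 563 CPM (log2 fold change −1.40, SE 0.10, edgeR adjusted *p*=1.61e-06).

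Genes shared by endocrine cells lay between. Of the 15 pan-endocrine genes, 7 were called higher in NNAT-positive libraries and 8 were not called (median log2 fold change −0.91). Secretogranin II (*Scg2*) had 8705, 11549, 8564 and 6711 CPM in NNAT-positive libraries and 1515, 2402 and 2201 CPM in non-beta cells (log2 fold change −2.22, SE 0.11, edgeR adjusted *p*=2.42e-07), and chromogranin A (*Chga*), a granule protein, 16211, 17821, 18379 and 13604 and 5511, 6831 and 8794 CPM (log2 fold change −1.34, SE 0.15, edgeR adjusted *p*=4.22e-05). *Syp*, the vesicle protein synaptophysin, differed by −2.07. The prohormone convertase *Pcsk2*, which makes glucagon, was at 6004, 7791 and 7430 CPM in non-beta cells and 5931, 5909, 5327 and 3894 CPM in NNAT-positive libraries (log2 fold change 0.30, SE 0.10, edgeR adjusted *p*=0.0326), while *Pcsk1*, which acts on proinsulin, differed by −3.87. *Snap25*, a vesicle fusion protein, was called at −1.03 but fell under 2-fold with RLE scaling (−0.94), scaling without hormone genes (−0.95) and DESeq2 (−0.94).

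Among annotated genes with a mean of at least 10 CPM in NNAT-positive libraries, the 20 of largest fold there had log2 sizes of 4.25 to 4.70, and 9 of them were in the beta cell list. Genes of lower level reached larger folds. The sort genes *Ins1* and *Ins2* lay within this range, at −4.45 and −4.38. In non-beta cells of mice 1, 2 and 3, *Ins1* was at 3.32, 3.50 and 7.83% of its NNAT-positive level. *Slc2a2* was at 3.45, 3.94 and 7.88%, and *Mnx1* at 5.40, 3.97 and 5.89%. The source of these reads was not tested. The glucagon receptor *Gcgr* (chr11:120530699-120538986, plus strand) had the largest fold of the 20, with 15.8, 18.9, 16.1 and 40.1 CPM in libraries labelled NNAT-positive and 0.367, 0.265 and 1.43 CPM in non-beta cells (log2 fold change −4.70, SE 0.42, edgeR adjusted *p*=1.01e-05). It was followed by the serine protease *Prss53* (−4.62), the carbonic anhydrase-related *Car10* (−4.62), the cytochrome oxidase subunit *Cox6a2* (−4.59) and the potassium channel subunit *Kcnf1* (−4.52). *Mnx1*, a homeobox factor needed in beta cell development, had 33.2, 45.3, 35.2 and 31.8 CPM against 1.79, 1.80 and 2.07 CPM. *Plut*, a long non-coding RNA next to *Pdx1*, had 19.9, 26.8, 24.9 and 15.7 against 0.800, 0.980 and 2.02 CPM. The mucin *Muc4* had 52.4, 71.2, 64.95 and 164 CPM in NNAT-positive libraries, highest in mouse 4, and shares exonic bases with *Muc20* on the opposite strand.

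Receptors divided the fractions in both directions: of 17 tested, 8 were called higher in NNAT-positive libraries and 6 in non-beta cells (median log2 fold change −0.02). Beside *Gcgr*, the GLP-1 receptor *Glp1r* had 1398, 1423, 1537 and 959.7 CPM in NNAT-positive libraries and 51.5, 62.3 and 118 CPM in non-beta cells (log2 fold change −4.31, SE 0.21, edgeR adjusted *p*=1.79e-07). The galanin receptor *Galr1*, the adrenergic receptor *Adra2a* and the fatty acid receptor *Ffar1* differed by −4.14, −3.44 and −2.76 (log2). The GIP receptor *Gipr* had 38.1, 34.5, 37.7 and 244 CPM in NNAT-positive libraries, far the highest in mouse 4. In non-beta cells it had 9.75, 9.86 and 10.5 CPM (log2 fold change −1.86, SE 0.08, edgeR adjusted *p*=1.3e-07). Without the block its log2 fold change was −3.14 and its edgeR adjusted *p* was 0.0205. Higher in non-beta cells were the vasopressin receptor *Avpr1b*, known from alpha cells, at 43.2, 69.5 and 78.5 against 1.66, 1.22, 1.81 and 1.92 CPM (log2 fold change 5.06, SE 0.44, edgeR adjusted *p*=8.11e-06), and the somatostatin receptor *Sstr2*, at 8.11, 19.3 and 9.73 against 0.618, 0.840, 0 and 0.388 CPM. The adjusted *p* of *Sstr2* was 0.00661, 0.0405 with DESeq2, 0.0103 without mouse 1, 0.0255 without mouse 2 and 0.0181 without mouse 4. The somatostatin receptor *Sstr3* was instead higher in NNAT-positive libraries (−1.13, and −0.99 without mouse 1). The insulin receptor *Insr* was at 73.2, 84.8 and 87.8 CPM and 73.3, 91.7, 73.8 and 75.8 CPM (log2 fold change 0.02, SE 0.10, edgeR adjusted *p*=0.883).

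*Penk* (proenkephalin) had 147, 63.6 and 76.3 CPM in non-beta cells and 0.674, 0.384, 0.105 and 0.183 CPM in libraries labelled NNAT-positive (log2 fold change 8.02, SE 0.39, edgeR adjusted *p*=1.87e-07). Prodynorphin (*Pdyn*) and neuropeptide Y (*Npy*) were higher in NNAT-positive libraries, *Pdyn* at 101 ± 45.1 CPM (SD, *n*=4) against 24.4 ± 5.22 CPM (SD, *n*=3) (log2 fold change −2.19, SE 0.19, edgeR adjusted *p*=7.07e-06) and *Npy* at 5.11, 6.69, 7.43 and 5.30 against 1.15, 1.96 and 1.13 CPM (log2 fold change −2.22, SE 0.30, edgeR adjusted *p*=0.000149). *Npy1r*, a receptor for this family, had 12.7, 5.70 and 3.04 CPM in non-beta cells and no count in NNAT-positive libraries, at least 84.7-fold higher, with an adjusted *p* of 0.0169 in DESeq2. Of the 12 hormone and neuropeptide genes tested, 6 were called higher in non-beta cells and 4 in NNAT-positive libraries.

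Genes disallowed in beta cells were called higher in non-beta cells for 14 of 14 (median log2 fold change 6.53). Lactate dehydrogenase A (*Ldha*) had 91.5, 47.2 and 58.3 CPM in non-beta cells and 0.478, 0.624, 0.445 and 0.343 CPM in NNAT-positive libraries (log2 fold change 7.08, SE 0.43, edgeR adjusted *p*=7.58e-07), and the lactate and pyruvate carrier *Slc16a1* had 22.2, 17.5 and 14.7 against 0.393, 0.288, 0 and 0.0685 CPM (log2 fold change 6.40, SE 0.99, edgeR adjusted *p*=0.000402). Hexokinase 1 (*Hk1*), the high-affinity form, differed by 5.75. *Igfbp4*, a binding protein for insulin-like growth factors, had 607, 231 and 204 CPM in non-beta cells and 0.871, 0.168, 0.654 and 0.457 CPM in NNAT-positive libraries. Differences were smallest for *Lmo4* (2.94), catalase (*Cat*, 3.04), *Smad3* (3.18) and *Acot7* (3.31), and *Acot7* lost its call without mouse 3 (adjusted *p*=0.0247) and without mouse 4 (0.0141). Mouse 1 had the highest non-beta level of 13 of the 14 genes, as it did for the stromal list; without mouse 1, 14 of 14 were called.

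Immediate early and stress genes, which answer many stimuli within a short time, were called higher in non-beta cells for 11 of 11 (median log2 fold change 3.42), but the calls needed the mouse block. *Fos* had 1747, 1120 and 1263 CPM in non-beta cells and 231, 90.5, 113 and 966 CPM in libraries labelled NNAT-positive (log2 fold change 3.45, SE 0.30, edgeR adjusted *p*=8.24e-06). *Jun* had 895, 569 and 708 and 115, 57.5, 66.9 and 780.1 CPM (log2 fold change 3.28, SE 0.17, edgeR adjusted *p*=2.42e-07), and the heat shock gene *Hspa1a* 147, 173 and 217 and 28.8, 22.5, 24.6 and 227 CPM (log2 fold change 2.90, SE 0.26, edgeR adjusted *p*=9.84e-06). In mice 1 to 3 each of the 11 genes was higher in the non-beta library of the mouse. The NNAT-positive library of mouse 4, which has no non-beta partner, overlapped the non-beta range in 6 of the 11. Summed over the list, libraries labelled NNAT-positive had 678, 337, 389 and 3789 CPM in mice 1 to 4. Those labelled NNAT-negative had 509, 200, 314 and 3127 CPM, so that both beta cell libraries of mouse 4 were high. Without the mouse block 0 of the 11 genes were called by edgeR's quasi-likelihood test (5 at an unadjusted *p* below 0.05, all higher in non-beta cells), and the median log2 fold change was 1.79. Without mouse 4, and with the block, 11 were called and the median was 3.38. This fit could differ little, because mouse 4 weighs little in the comparison once the block is used. DESeq2 with the block also called 11.

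**Figure D5:**
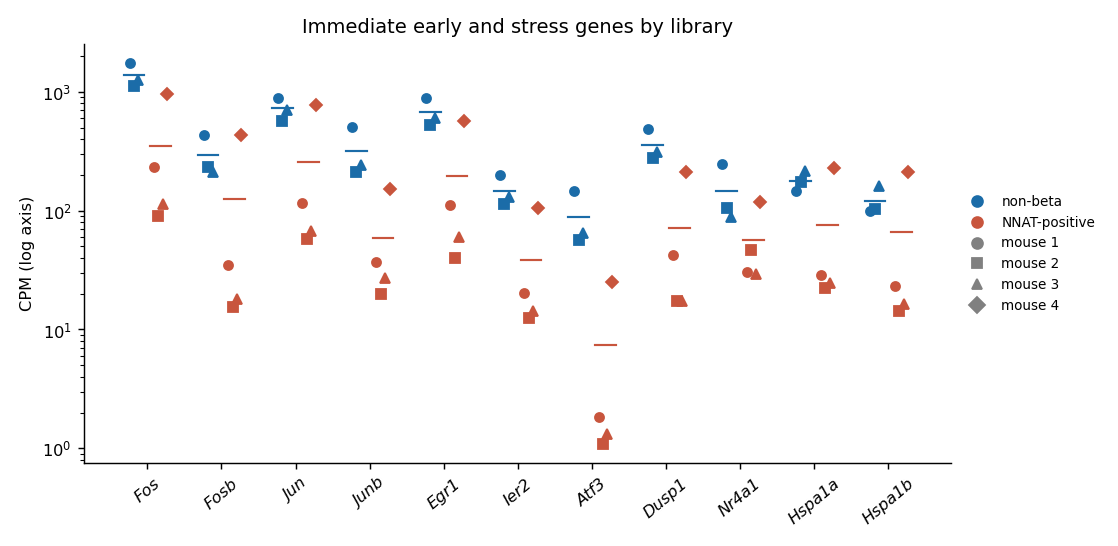
CPM (log axis) of 11 immediate early and stress genes in the 3 non-beta libraries (blue) and the 4 libraries labelled NNAT-positive (red), 1 symbol per mouse with bars for group means. The red diamond, mouse 4, lies above the other NNAT-positive libraries in each gene and within or above the non-beta range for *Fosb*, *Jun*, *Egr1*, *Nr4a1*, *Hspa1a* and *Hspa1b*.

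Cell cycle genes were not called in either direction with all mice. In edgeR's quasi-likelihood test 0 of 10 passed (1 at an unadjusted *p* below 0.05), DESeq2 called 1, *Aurkb*, and the median log2 fold change was 0.90. *Mki67* had 69.6, 19.2 and 12.5 CPM in non-beta cells and 9.21, 15.8, 25.4 and 20.3 CPM in libraries labelled NNAT-positive (log2 fold change 0.94, SE 0.62, edgeR adjusted *p*=0.248), and *Top2a* had 83.9, 23.3 and 18.3 and 11.8, 25.2, 25.1 and 19.1 CPM. The 10 genes were all highest in the non-beta library of mouse 1, and without mouse 1 the median changed sign to −0.25 and 1 gene, *Cenpf*, was called higher in NNAT-positive libraries (−1.06, edgeR adjusted *p*=0.00953). With all mice *Cenpf* had 10.8, 5.41 and 3.79 and 5.56, 10.7, 8.53 and 8.75 CPM (log2 fold change −0.25, SE 0.45, edgeR adjusted *p*=0.693), and it is named here because of this call.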

How the data were processed

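Islets were isolated from each mouse by digestion with Liberase, purified on Histopaque, hand-picked and dispersed with Accutase, and live single cells were sorted by FACS. Per the study's methods, 20 ng of total RNA per sample was poly(A)-selected and made into strand-marked libraries. The authors aligned reads with STAR 2.7.1a to mm10 and deposited raw counts per Gencode gene, which they tested with DESeq2 1.32.0; whether counting used strand is not given in the sources used here. The authors' own comparison columns were not used.

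The deposited counts of 55401 genes were filtered with filterByExpr (17424 tested) and fitted in edgeR 4.0.16 (R 4.3.3, limma 3.58.1) by the quasi-likelihood method with TMM scaling, over all 11 libraries with the mouse as a block, and p-values were adjusted over the genes tested by Benjamini-Hochberg. TMM uses the bulk of genes, so that levels are relative to them. Replicate numbers name mice, so fractions with the same number come from the same animal. The group mean over mice 1 to 3 was subtracted from each gene. Same-mouse pairs of a non-beta and an NNAT-positive library then had a mean correlation of 0.123 (3 pairs). Pairs from different mice had −0.0613 (6 pairs), a value that follows largely from the first because of the subtraction. No pair of the 11 libraries had identical counts. Alternatives comprised no block, the 7 libraries alone, other scalings, DESeq2 1.42.0, no filter, other thresholds, exchanged beta cell fractions and leaving out each mouse.

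Gene lists by known role, the members named and the ranked genes (the 20 of largest fold in each direction at a mean of at least 10 CPM, leaving out predicted genes, and the 20 of highest level per kb) were chosen with earlier results of these data known. Fold bounds set a gene without counts at 3 counts in 1 library. Ratios of genes with 1 to 3 counts carry exact Poisson intervals that cover counting error only. Gene positions and exon lengths came from Gencode M21, which held 55141 of the 55401 identifiers. Values of some list members are not reported here, although they count in the lists.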

Additional observations from a re-analysis of the deposited data

Results flagged for a closer look

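Of 103 named genes with at least 10 CPM whose 4 libraries labelled NNAT-positive were examined, 38 had 1 library far from the other 3: the gap from that library to its nearest neighbour exceeded Dixon's 95% critical share of the whole range. Chance alone marks about 1 gene in 20 this way, and the genes are not independent, since 17 of the 38 stood apart in mouse 2 and 21 in mouse 4. Groups of 3, such as the non-beta libraries, were not examined.

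In mouse 2, digestive enzyme genes and their relatives were the highest of the group, at CPM of 254 for *2210010C04Rik*, 314 for *Cel*, 313 for *Cela1*, 248 for *Cela2a*, 100.5 for *Cela3b*, 70.0 for *Clps*, 235 for *Cpa1*, 264 for *Cpb1*, 425 for *Ctrb1*, 126 for *Ctrl*, 510.3 for *Pnlip*, 215 for *Prss2*, 81.3 for *Rnase1*, 58.0 for *Try4* and 48.4 for *Try5*. The tetraspanin *Tspan8*, of the ductal list, was at 17.8 CPM and *Insr* at 91.7 CPM in the same library.

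In mouse 4, immediate early and stress genes were the highest of the group, at CPM of 966 for *Fos*, 429 for *Fosb*, 780.1 for *Jun*, 153 for *Junb*, 565 for *Egr1*, 106 for *Ier2*, 211 for *Dusp1*, 227 for *Hspa1a* and 209.9 for *Hspa1b*. Other genes that were highest in mouse 4 were at CPM of 1363 for *Abcc8*, 40.1 for *Gcgr*, 244 for *Gipr*, 164 for *Muc4*, 193 for *Neurod1*, 172 for *Rfx6* and 101 for *Nnat*. The genes lowest in mouse 4 were at CPM of 104 for *Car10*, 1647 for *Chgb*, 4494 for *Cpe*, 137 for *Nkx2-2* and 456 for *Ucn3*. The cause of these deviations was not tested.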

How the results depend on the processing

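The sign of the median log2 fold change held under the alternatives for each list but 2, cell cycle genes and receptors, whose medians lay near 0 or changed without mouse 1. At an adjusted p below 0.05 with no minimum fold, 4576 genes were higher in non-beta cells and 3686 in libraries labelled NNAT-positive, and with more than 4-fold 329 were higher in the latter. Leaving out each mouse gave 2016 to 2509 genes higher in non-beta cells and 911 to 1059 in NNAT-positive libraries. Without the replicate block, the counts were 2805 and 1001, and 90.3 and 87.2% of the calls with the block remained. In the 7 libraries alone they were 2738 and 984 with the block and 3145 and 1000 without it. With RLE scaling, 2843 and 909 genes were called, with scaling without hormone genes 2818 and 925, with DESeq2 3235 and 1089, with no filter 3034 and 1017, and with the beta cell fractions exchanged 2980 and 1076. RLE scaling moved the median log2 fold change of all genes from 0.06 to 0.157, so that differences near that size have no firm sign. Of 241 named genes tested, 205 were called, and 149 of these were called under every alternative that tested them. Signs reversed for *Cd79a* (log2 fold change 1.04 with the fractions exchanged and −1.68 to 0.215 when mice were left out), *Insr* (−0.0659 to 0.105), *Mki67* (−0.328 to 1.78), *Top2a* (−0.251 to 1.56) and *Cenpf* (−1.06 to 0.176, the last 4 when mice were left out); of these, *Cd79a* and *Cenpf* were called without mouse 1 and the others in none of those fits. Without the block, the immediate early and stress genes lost their 11 calls. The cause of their high levels in both beta cell libraries of mouse 4 was not tested. Fitted folds of genes with few counts in NNAT-positive libraries depend on the prior count: single genes without counts are given by bounds and those with 1 to 3 counts by ratios with intervals, whereas list medians and the ranking by fold use fitted values.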
